A study of Mus musculus with 6 samples.

Results

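The control-only distal regions are stretches of open chromatin far from gene starts that were called in blood leukocytes in all 3 control libraries and in none of the 3 HADA libraries, HADA standing for high-altitude de-acclimatization. The peak lists of the 6 libraries on chromosomes 1 to 19 were joined wherever peaks shared 1 bp, which gave 60298 merged regions. Of these, 32374 were distal, with each peak summit more than 3 kb from any annotated transcript start, and 726 of the distal regions were control-only. They made up 2.24% of distal regions (exact binomial 95% interval 2.08 to 2.41) and 1.20% of all regions. Since the regions were chosen by the peak calls of both groups, their presence in control lists and absence from HADA lists is the rule and not a result, and their heights are given as a description. The opposite set, HADA-only distal regions, held 2611 regions, and 8312 distal regions were shared, with a peak in all 6 lists.

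The assay was ATAC-seq, which uses the transposase Tn5 to insert sequencing adapters into open DNA, on unsorted white blood cells of male C57BL/6j mice bought at 8 weeks of age. HADA mice had spent 28 days in a hypobaric chamber at a simulated 6000 m and were then returned to normal oxygen, and the time between return and blood sampling is not given for these libraries. Control mice had 0 days in the chamber. The sample labels and methods give leukocytes left after red-cell lysis, while the study elsewhere calls them mononuclear cells, a fraction that would lack most neutrophils, so the neutrophil values given here carry that doubt. There were 3 libraries in each group, and because nothing says that each came from a separate mouse, p-values measure only the spread between libraries. The comparison asks where chromatin differs between mice that came back from hypoxia and mice that never left normoxia.

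Many distal open regions are enhancers, to which transcription factors bind and from which they raise the transcription of genes that may lie far away on the same chromosome. AP-1, a dimer of Fos and Jun family proteins, binds a short palindrome-like heptamer at enhancers of activated leukocytes. C/EBP proteins drive the neutrophil and monocyte programmes, PU.1 is needed in myeloid and B cells, EBF and OCT2 act in B cells, and CTCF is bound at chromatin loop anchors in every cell type. Some open regions lie in sequence that recurs across the genome, and a read that lies wholly within identical copies cannot be placed on any 1 of them.

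A peak is a stretch where more fragments pile up than the local background, and its summit is the base with the highest pileup. The lists held 32533 to 39769 peaks in the control libraries and 42500 to 44102 in the HADA libraries on these chromosomes. The genome-wide background pileup, the expected number of fragments over a base and a stand-in for depth, lay between 1.69 and 2.05 in control libraries and between 1.99 and 2.34 in HADA libraries. Control 3 stood apart at blood cell genes. At promoters of the B cell list, 10 of 17 genes had a peak in control 3 and 17 of 17 in each of the other 5 libraries. For shared promoters of neutrophil genes, the mean log2 height, centred on the median shared region of the library, was 1.37 in control 3, 0.31 in control 1 and 0.23 in control 2, and −0.77, −1.17 and −1.36 in HADA 1, 2 and 3. In bulk leukocytes, fewer cells of a type and less accessibility per cell cannot be told apart.

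Of the 726 control-only distal regions, 58 held the AP-1 heptamer TGACTCA on either strand within 100 bases of the summit of the tallest control peak. The 6 tallest of these whose summit sequence occurs once in the genome are shown to place the motif in its sequence. Sequences are the plus strand of GRCm39, 5′ to 3′, with the heptamer in capitals, and each is named by the nearest protein-coding gene.
Cmip, chr8:117979446-117979546: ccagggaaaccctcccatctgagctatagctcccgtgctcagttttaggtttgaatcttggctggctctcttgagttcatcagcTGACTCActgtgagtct
Snap23, chr2:120402846-120402946: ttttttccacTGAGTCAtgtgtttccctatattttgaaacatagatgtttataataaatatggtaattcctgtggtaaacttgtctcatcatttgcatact
Vps37b, chr5:124185325-124185420: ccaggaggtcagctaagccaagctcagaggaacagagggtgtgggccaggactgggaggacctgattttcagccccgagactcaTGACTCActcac
Gtf3c5, chr2:28481546-28481646: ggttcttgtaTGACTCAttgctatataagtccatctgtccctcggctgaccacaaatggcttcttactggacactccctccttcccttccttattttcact
Pxk, chr14:14376183-14376283: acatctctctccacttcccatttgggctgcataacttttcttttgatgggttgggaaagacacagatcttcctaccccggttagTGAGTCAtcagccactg
Fam120a, chr13:49116222-49116322: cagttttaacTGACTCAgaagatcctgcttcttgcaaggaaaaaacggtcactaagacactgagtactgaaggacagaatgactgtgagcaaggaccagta

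The heptamer lay whole within 50 bases of the summit in 32 of the 58 regions, and in 4 regions it occurred 2 or more times. The summits of 56 of the 58 were found once in the genome, and 30 of the regions lay in introns. The Cmip region, 3.94 kb from a start of Cmip, an adaptor gene of T cell signalling, had summit pileups of 63, 59 and 72 fragments in control 1, 2 and 3. The Snap23 region lay in an intron of Snap23, which encodes a membrane fusion protein used in degranulation, and had 37, 36 and 85 fragments. Another summit of that region had 33 copies in the genome. The Vps37b region had 44, 40 and 65 fragments, and the Gtf3c5 region 54, 55 and 37. The Pxk region lay in an annotated exon inside the gene bodies of Htd2 and Rpp14 and had 51, 41 and 40 fragments. The Fam120a region, in an intron of that gene, had 42, 35 and 48. Control 3 was the highest of the 3 libraries in pileup at Cmip, Snap23, Vps37b and Fam120a and the lowest at Gtf3c5 and Pxk.

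To compare libraries of different depth, a height was defined as the summit pileup divided by the background pileup of the library. Over the 58 regions with the heptamer, the median height was 9.77 in control 1, 8.76 in control 2 and 12.6 in control 3. Over all 726 regions it was 8.89, 8.76 and 9.56, with ranges of 4.15 to 66.3, 3.89 to 48.2 and 4.37 to 107. Most of the regions were small peaks: ranked by the deposited −log10 p within its own list, the median region stood at the 25.1, 29.9 and 29.6 percentile of control 1, 2 and 3. Over the 3 control libraries the median mean pileup was 16.7 fragments in control-only distal regions, against 34.7 in shared distal regions, whereas HADA-only distal regions had 21.3 in the HADA libraries.

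The tallest region lay 20.5 kb from a start of Dennd4a, a gene for a regulator of Rab GTPases, in intergenic sequence. It had 112, 99 and 196 fragments in control 1, 2 and 3, and a height of 73.9 ± 30.2 (SD, n = 3). A separate HADA peak began 522 bp from its edge. The next lay in an intron of Srgn, which encodes the granule proteoglycan serglycin, although the nearest coding start was that of Vps26a, 9.26 kb away. It had 108, 63 and 150 fragments. The summit sequences of both are shown because these are the tallest regions, and neither holds AP-1, C/EBP, PU.1 or RUNX letters within 100 bases of the summit.
Dennd4a, chr9:64698075-64698175: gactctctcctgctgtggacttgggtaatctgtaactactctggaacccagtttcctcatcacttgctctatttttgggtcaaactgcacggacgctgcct
Vps26a, chr10:62331914-62332014: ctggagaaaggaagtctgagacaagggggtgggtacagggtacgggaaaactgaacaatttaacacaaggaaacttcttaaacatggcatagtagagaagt

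At Lmnb1, which encodes lamin B1 of the nuclear envelope, an intronic region had 94, 64 and 132 fragments. Near Nid1, a basement membrane gene, an intergenic region had 77, 67 and 146. Laptm5, a lysosomal gene of blood cells, had an intronic region with 90, 70 and 83 fragments, 3.58 kb from a start. Control 3 was the tallest library by height in 19 of the 20 tallest regions and in 348 of all 726 (47.9%), so the largest values rest mainly on that library. The other regions among the 8 tallest lay near Sidt2, with 60, 67 and 110 fragments, near Susd6, with 65, 67 and 95, and near Zfp36l1, an mRNA decay factor, with 65, 50 and 107.

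**Figure D1:**
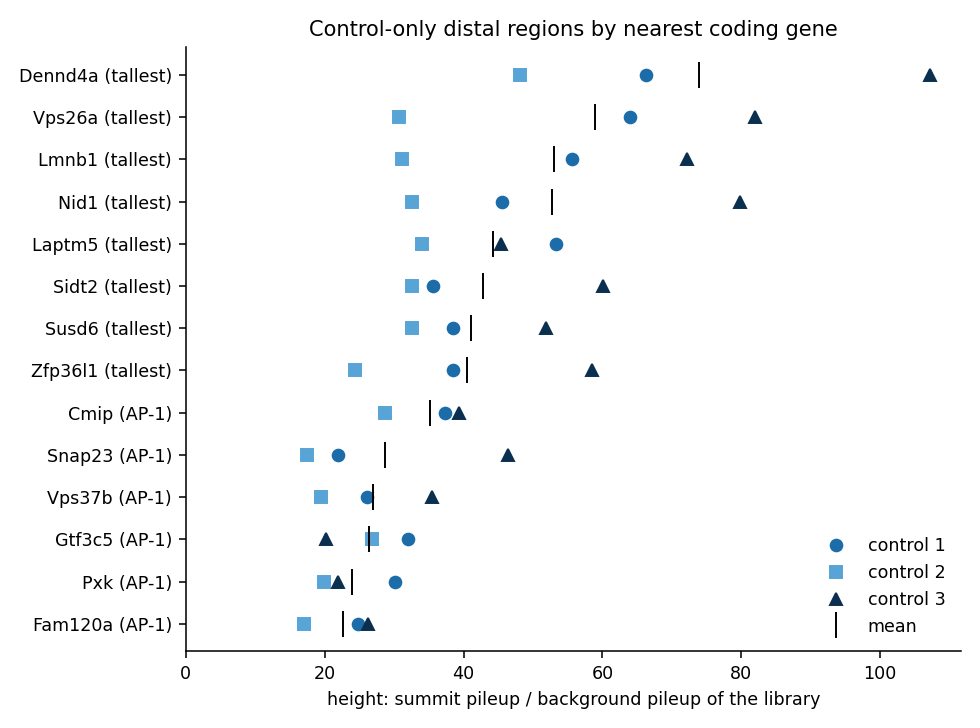
Heights (summit pileup divided by the background pileup of the library, linear axis) of the 8 tallest control-only distal regions with a summit sequence found once and of the 6 tallest that hold the AP-1 heptamer, with 1 point per control library and a bar at the mean. Control 3 is the highest library in each of the 8 tallest regions except Laptm5, where control 1 is.

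The AP-1 heptamer was present in 7.99% of control-only distal regions (58 of 726, exact binomial 95% interval 6.12 to 10.2), 4.14% of HADA-only distal regions, 4.23% of shared distal regions and 4.31% of all distal regions. In windows of the same length 1 kb to either side of the summits it was in 2.69%. With the window narrowed to 50 bases, the shares were 4.41%, 1.99% and 1.89% in control-only, HADA-only and shared distal regions. With 1 mismatch allowed they were 51.1%, 48.0% and 46.4%. Among regions whose summit sequence was found once, the share was 10.2% (56 of 551), against 4.25% of HADA-only and 5.26% of shared distal regions with such summits. The control-only share moved with the libraries used: regions chosen without control 3 held the heptamer in 4.91% (73 of 1486), beside 4.41% of the shared distal regions of the same 5 libraries. Without HADA 3 it was 5.59% (63 of 1127), beside 4.42% of the shared distal regions. Without any other single library it was 6.79 to 8.34%. The neutrophil promoter levels of control 3 given above stand beside this value, and their part in it was not tested.

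The C/EBP motif TTGCNNAA was more common. It was in 17.4% of control-only distal regions (126 of 726, interval 14.7 to 20.3), 8.12% of HADA-only, 10.9% of shared and 10.2% of all distal regions, and in 8.06% of the windows 1 kb away. This share was 14.6% (217 of 1486) when the regions were chosen without control 3, beside 10.4% of the shared distal regions of those libraries, and it lay between 14.6 and 16.4% over the 6 choices that left out 1 library. In all, 14 regions held both motifs, and 170 (23.4%) held at least 1 of them, against 11.9% of HADA-only and 14.7% of shared distal regions.

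TGACNNNGC, the core of NRF2 sites, overlaps AP-1 when the heptamer is followed by GC, and was in 10.1% of control-only and 7.18% of shared distal regions. The MARE, a Maf recognition element whose letters here contain the AP-1 heptamer, was in 8 control-only regions (1.10%), and in 0.229% of shared distal regions. PU.1 (GAGGAAGT) was in 4.55% of control-only and 5.67% of shared distal regions, and RUNX (TGTGGT) in 18.2% and 20.9%. NF-kB (GGGANNTTCC), a factor of inflammatory genes, was in 1.10% and 0.854%. In HADA-only distal regions the NRF2 core was in 7.74%, the MARE in 0.306%, PU.1 in 6.59%, RUNX in 22.7% and NF-kB in 1.19%.

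Motifs of lymphoid factors and of CTCF varied. The CTCF motif was in 0 of 726, which allows a share of up to 0.413%. It was in 2.03% of HADA-only and 0.397% of shared distal regions, so a difference from the shared ones was not detectable with 726 regions. EBF (TCCCNNGGGA) was in 1 region (0.138%), against 1.65% of HADA-only and 0.421% of shared distal regions. The octamer ATGCAAAT was in 1.10%, against 4.06% and 2.32%, and the IRF motif GAAANNGAAA in 1.38%, against 3.75% and 3.53%. The motif of TCF7, a T cell factor, was in 6.06% of control-only, 8.96% of HADA-only and 6.63% of shared distal regions, and the E-box CAGCTG in 11.6%, 15.9% and 11.8%. The GATA motif AGATAA was in 8.26%, 8.54% and 8.12%.

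**Figure D2:**
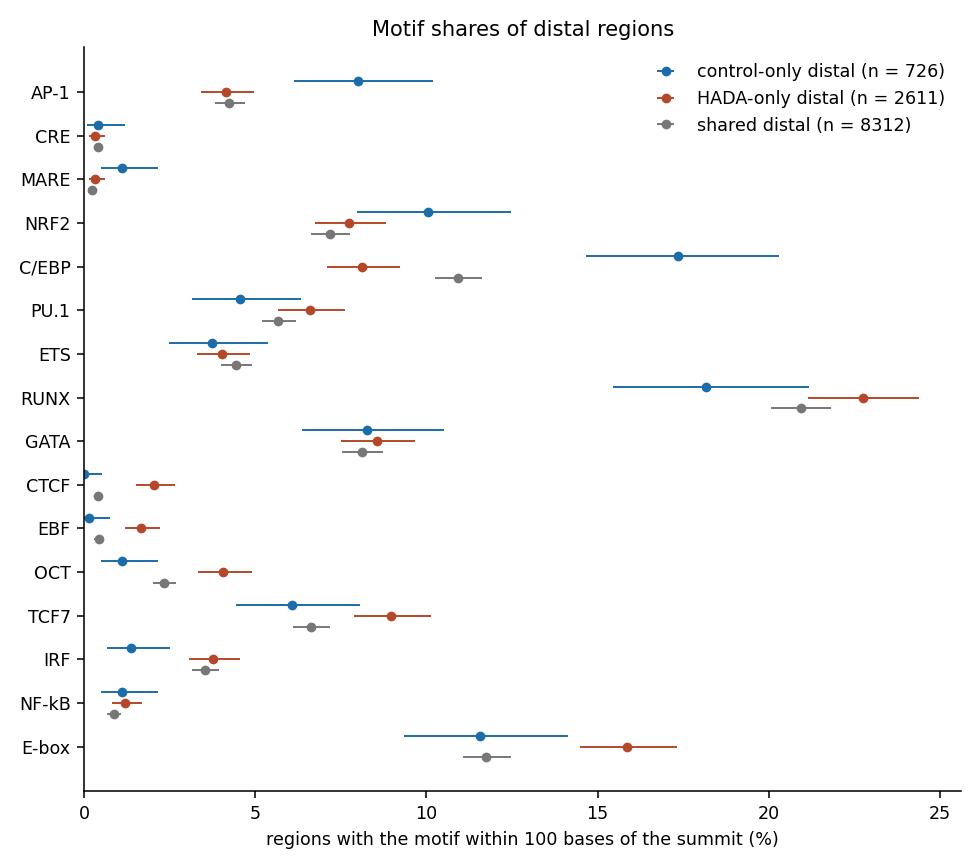
Share of control-only, HADA-only and shared distal regions that hold each of 16 motifs within 100 bases of the summit, in percent, with exact binomial 95% intervals that cover counting error only. AP-1 and C/EBP lie higher in control-only regions (7.99% and 17.4%), and CTCF, EBF and OCT are highest in HADA-only regions.

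To ask whether AP-1 sites differed outside the regions chosen by the rule, the heptamer was counted at each library's own distal summits in regions called in at least 1 library of each group. It was at 4.40, 4.32 and 4.38% of these peaks in control 1, 2 and 3 and at 4.65, 4.28 and 4.03% in HADA 1, 2 and 3. The groups overlapped, with 4.37 ± 0.04% in control and 4.32 ± 0.31% in HADA libraries (SD, n = 3 each, two-sided exact permutation p = 0.7, adjusted p = 0.8 over 16 motifs). With 3 libraries a group the exact test cannot go below p = 0.1, so none of these comparisons could reach 0.05.

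Heights were then compared in the 352 shared distal regions with the heptamer. Their mean log2 pileup, centred on the median of all shared regions of the library, was −0.43, −0.47 and −0.21 for control 1, 2 and 3 and −0.73, −0.80 and −0.83 for HADA 1, 2 and 3. Every HADA library lay below every control library, by −0.41 on average (n = 3 each, exact permutation p = 0.1). Without control 3 the difference was −0.23. All 8312 shared distal regions had a like difference, with −0.50 ± 0.14 in control and −0.98 ± 0.04 in HADA libraries, a difference of −0.48. Relative to all shared distal regions of its own library, a measure that no scaling can move and that was added after the values had been seen, the heptamer regions stood at 0.20, −0.12 and 0.31 for control 1, 2 and 3 and at 0.29, 0.19 and 0.11 for HADA 1, 2 and 3. The groups overlapped on that measure, with a difference of 0.07 (exact permutation p = 0.9, adjusted p = 1). With pileups divided by the background of the library instead of centred, the median shared region was 0.40 higher in HADA on the log2 scale, and the difference at heptamer regions was −0.02 with the groups overlapping (exact permutation p = 0.9).

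For C/EBP sites the groups lay apart in both measures, although neither passed adjustment over the 16 motifs. They were at 10.4, 10.7 and 11.2% of the distal peaks called in both groups in control 1, 2 and 3 and at 9.90, 9.74 and 10.4% in HADA 1, 2 and 3, with the lowest control library just above the highest HADA library (exact permutation p = 0.1, adjusted p = 0.267). In height relative to all shared distal regions, the 908 regions with C/EBP stood at 0.00, 0.06 and 0.16 for control 1, 2 and 3 and at −0.15, −0.21 and −0.20 for HADA 1, 2 and 3, a difference of −0.27 with the groups apart (exact permutation p = 0.1, adjusted p = 0.145). Of the 16 motifs, 11 had groups that lay apart on this measure (exact permutation p = 0.1 each), and in the 10 besides C/EBP the HADA libraries were the higher. PU.1 was among them, with a difference of 0.33 in 471 regions, as were RUNX with 0.19, ETS with 0.19, IRF with 0.30 and NF-kB with 0.25. EBF and CTCF had differences of 0.75 each, in 35 and 33 regions.

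**Figure D3:**
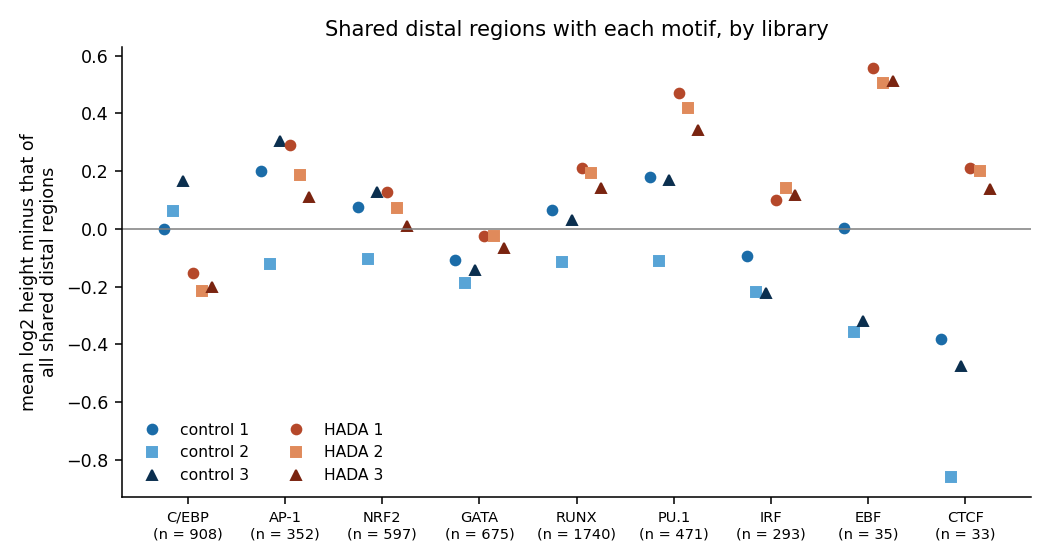
Mean log2 height of the shared distal regions with a motif minus that of all 8312 shared distal regions in the same library, with 1 point per library, for 9 of the 16 motifs. The C/EBP points of HADA lie below those of control, the AP-1 and NRF2 points overlap, and for the other motifs drawn, PU.1 among them, the HADA points lie above those of control.

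Summits in repeated sequence were found in 24.1% of control-only, 21.5% of shared and 2.57% of HADA-only distal regions, and the first share moved with the libraries used. The 50 bases at the summit occurred once in the genome in 551 of 726 control-only regions, or 75.9% (exact binomial 95% interval 72.6 to 79.0), in 97.4% of HADA-only regions (96.8 to 98.0) and in 78.5% of shared distal regions. The 175 control-only regions with a repeated summit were wider, with a median of 1262 bp against 664 bp, and more often intergenic, 47.4% against 33.2%. They were also lower, with a median mean height of 7.02 against 10.1. In 71 regions the summit had 100 or more copies and in 33 it had 1000 or more, and the median over the repeated summits was 29. Reads were paired and longer than the 50 bases counted, so a repeated summit does not mean that no read could be placed there.

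The 3 regions with most copies, counted as exact matches at any position, are shown because their summits are simple tandem repeats, here as 50 bases around the summit. A region near Tnfaip6 had the same 50 bases, and so as many copies, as the one near Skil, which is shown as the taller.
Ptpn12, chr5:21183934-21183983: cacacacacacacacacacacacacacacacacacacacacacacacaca
Cd24a, chr10:43438969-43439018: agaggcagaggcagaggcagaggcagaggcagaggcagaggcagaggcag
Skil, chr3:31124463-31124512: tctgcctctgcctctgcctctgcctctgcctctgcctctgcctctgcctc

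The summit near Ptpn12, a phosphatase gene, is a CA tract, and the region had 11, 17 and 10 fragments in control 1, 2 and 3. Its summit bases match the genome at 83274 positions. A long tract matches them at many overlapping positions, so for tandem repeats such counts are of match positions and not of separate copies. The summits near Cd24a and Skil lie in arrays of a 6-base unit that fill the 201 bases around the summit, with 21647 and 21631 match positions. Both arrays repeat the same unit, read on opposite strands. The Cd24a region had 12, 12 and 11 fragments, the Skil region 14, 16 and 17. All 3 were small, with mean heights of 6.75, 6.32 and 8.46. A tandem run of 20 bp or more was within 100 bases of the summit in 4.82% of control-only regions and in 5.59% of HADA-only and 5.38% of shared distal regions.

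Repeated and once-found summits differed in which control library was tallest. Control 2 was the tallest at 110 of the 175 repeated summits (62.9%) and control 3 at 310 of the 551 once-found summits (56.3%). Chosen without control 3, 34.3% of control-only distal regions had a repeated summit, against 18.8% of shared and 2.63% of HADA-only ones. Without HADA 3 these shares were 33.8%, 21.4% and 2.68%, and without control 2 they were 17.8%, 21.0% and 2.88%. With each list limited to its 32533 strongest peaks they were 34.9%, 16.9% and 2.12%. Outside the regions chosen by the rule, repeated summits made up 20.4, 24.5 and 24.2% of distal peaks called in both groups in control 1, 2 and 3 and 17.2, 18.4 and 21.1% in HADA 1, 2 and 3. The groups overlapped, with 23.1 ± 2.27% in control and 18.9 ± 2.01% in HADA libraries (SD, n = 3 each, two-sided exact permutation p = 0.2).

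**Figure D4:**
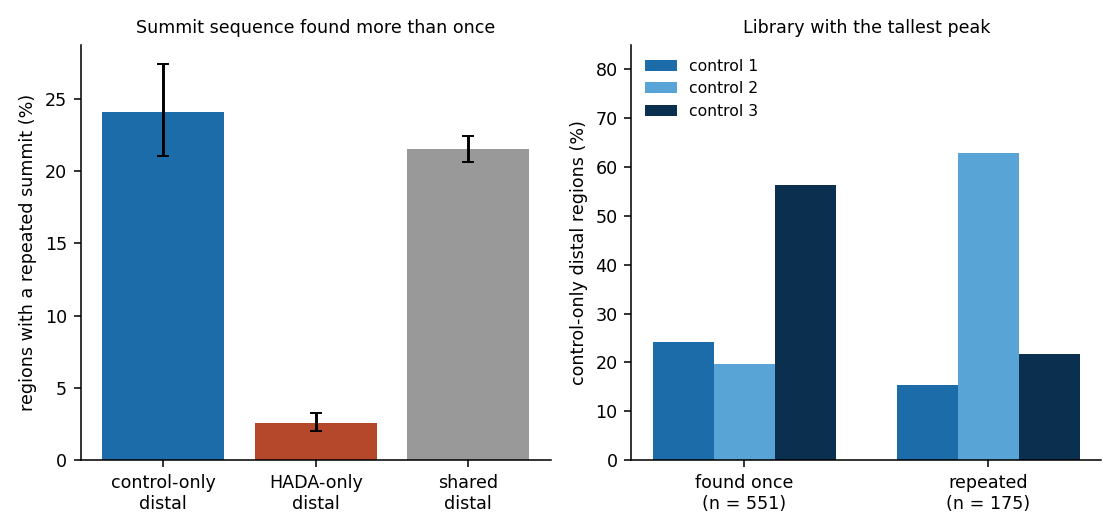
Left, share of control-only, HADA-only and shared distal regions whose 50 summit bases occur more than once in the genome, in percent with exact binomial 95% intervals (24.1%, 2.57% and 21.5%). Right, share of once-found and repeated control-only regions in which each control library has the tallest peak, with control 3 leading in the first and control 2 in the second.

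In the genome, 426 of the control-only distal regions lay in introns (58.7%), 266 in intergenic sequence (36.6%) and 34 in exons. Shared distal regions divided alike, with 57.0% and 38.0%, whereas 1717 of 2611 HADA-only regions (65.8%) were intronic and 706 intergenic. The median distance to a protein-coding start was 23319.5 bp, and 134 regions (18.5%) lay more than 100 kb away, against 11.2% of HADA-only and 20.1% of shared distal regions. The nearest HADA peak was 10006 bp away at the median and within 1 kb for 45 regions. Neighbouring control-only distal regions on a chromosome were 2137 kb apart at the median, and 3 pairs lay within 10 kb. Chromosome 2 held 72 of them, 9.92% against 7.86% of all distal regions.

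Few genes gathered several regions. The 726 regions had 665 nearest protein-coding genes, and 49 genes were nearest to 2 or more, which took in 15.2% of the regions. HADA-only distal regions gathered more, with 41.2% at such genes, but they were also more numerous. Trps1, a GATA-type repressor gene, and Tbl1xr1, which encodes a subunit of the NCoR corepressor complex, had 4 each. Sgms1, Trib1, App, Rbpj, Smad3, Steap4, Fndc3b and Atrnl1 had 3 each. HADA-only distal regions were also nearest to some of these genes, with 3 at Sgms1, 2 at Trib1 and 1 at Tbl1xr1.

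The 4 Trps1 regions lay 6.35 to 132 kb from its starts, within 145 kb, and each had a summit found once. They had 28, 27 and 26, then 23, 16 and 20, then 16, 14 and 22, and then 27, 21 and 33 fragments in control 1, 2 and 3. Control 1 was highest at the first 2 and control 3 at the others. At 2 of them the C/EBP motif was within 100 bases of the summit, as it was at 1 region each of Sgms1 and Tbl1xr1, and these are shown with the motif in capitals to place it in the clusters.
Trps1, chr15:50559342-50559442: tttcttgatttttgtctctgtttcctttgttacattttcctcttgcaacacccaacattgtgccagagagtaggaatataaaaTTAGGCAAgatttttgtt
Trps1, chr15:50697187-50697287: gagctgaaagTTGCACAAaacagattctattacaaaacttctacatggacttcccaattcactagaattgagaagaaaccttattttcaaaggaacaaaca
Sgms1, chr19:32192597-32192697: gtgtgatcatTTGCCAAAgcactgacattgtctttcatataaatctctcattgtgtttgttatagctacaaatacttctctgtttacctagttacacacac
Tbl1xr1, chr3:22145265-22145365: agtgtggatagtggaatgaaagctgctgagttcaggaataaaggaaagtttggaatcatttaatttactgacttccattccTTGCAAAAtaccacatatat

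The clusters at Smad3, Steap4 and Rbpj each had 1 region with the AP-1 heptamer. Smad3 encodes a transducer of TGF-beta signals, Steap4 a metalloreductase and Rbpj the DNA-binding factor of Notch signalling. The Smad3 region with the heptamer had 38, 33 and 52 fragments, the Steap4 region 15, 15 and 43, and the Rbpj region 16, 19 and 15. The Steap4 value rests on control 3. The sequences are shown with AP-1 and C/EBP letters in capitals, and the Rbpj region, 80.5 kb from the start, holds both, its C/EBP motif beginning before the stretch shown.
Smad3, chr9:63640103-63640196: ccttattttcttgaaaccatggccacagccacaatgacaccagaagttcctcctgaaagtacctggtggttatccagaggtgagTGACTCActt
Steap4, chr5:8024818-8024918: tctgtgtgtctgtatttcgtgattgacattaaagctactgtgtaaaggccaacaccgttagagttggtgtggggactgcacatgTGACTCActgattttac
Rbpj, chr5:53542951-53543051: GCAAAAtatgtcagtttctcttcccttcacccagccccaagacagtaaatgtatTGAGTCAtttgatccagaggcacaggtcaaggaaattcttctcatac

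Another Smad3 region, 72.1 kb from the start, had a summit with 538 copies and 12, 14 and 8 fragments. The tallest Rbpj region lay in an intron and had 34, 49 and 32. Trib1, a pseudokinase gene that promotes the breakdown of C/EBP alpha, had its tallest region 94.4 kb from the start, at chr15:59614557-59615100, with 55, 42 and 101 fragments, and its other regions had 12, 22 and 19 and 17, 12 and 11. App, the amyloid precursor gene, had 3 intronic regions, the tallest at chr16:84880914-84881552, with 41, 32 and 58, with 20, 26 and 48, and with 10, 10 and 21. Control 3 was the highest of the libraries at all 3. Sgms1, a sphingomyelin synthase gene, had regions with 32, 47 and 44, with 39, 39 and 57, and with 18, 16 and 28 fragments. The regions at Fndc3b had 13, 13 and 24, 23, 15 and 22, and 18, 10 and 21 fragments. Those at Atrnl1 had mean heights of 6.29 to 8.36 and those at Tbl1xr1 of 6.94 to 11.8. One Tbl1xr1 summit had 514 copies in the genome.

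To see whether open regions that both groups kept at these genes also differed, summit pileups were compared in the 23013 regions with a peak in all 6 lists (limma, Benjamini-Hochberg adjusted p under 0.05). Of these, 24.2% were called lower and 18.2% higher in HADA, and of the 8312 shared distal regions 41.7% were called lower and 13.8% higher. At the 10 genes, 47 of 81 shared regions were called lower and 5 higher. For the distal ones it was 37 of 53 (69.8%), with 2 higher, and a median log2 difference of −1.23 against −0.59 over all shared distal regions. The genes were chosen from the same contrast, so these counts are a description beside the background and were not tested. With pileups scaled to the background of the library instead of centred, 3877 of all shared regions were called lower and 7563 higher, in place of 5578 and 4186, and 39 of the 81 were called lower. With ranks of the deposited fold, 8 of the 81 were (9.88%), beside 6.10% of all shared regions. Genes chosen without control 3 numbered 36, and 125 of their 234 shared regions (53.4%) were called lower and 30 (12.8%) higher. Of all shared regions without control 3, 23.4% were called lower and 20.6% higher. Over the 6 choices without 1 library the lower share was 40.0 to 58.9%, lowest without HADA 2, where 12.6% of all shared regions were called lower.

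At Trib1, which also had 2 HADA-only distal regions, 11 of 15 shared regions were called lower. The shared region 136 kb from its start had heights of 87.7, 69.6 and 140 in control 1, 2 and 3 and of 42.7, 23.6 and 15.4 in HADA 1, 2 and 3. Its centred log2 pileup differed by −2.32 (SE 0.37, limma adjusted p = 0.00616). The differences given here are of centred pileups, which are larger in size at these regions than those of the heights. Its promoter region, 0.088 kb from the start, had heights of 294, 215 and 366 against 216, 156 and 162, which overlapped on this scale, and was called lower by −1.09 after centring (adjusted p = 0.00791). At App, 5 of 6 shared regions were called lower. The region 41.5 kb from a start had heights of 35.5, 31.6 and 98.9 against 10.3, 6.03 and 7.04 (−3.06 after centring, SE 0.45, limma adjusted p = 0.00616). At Rbpj all 4 shared regions were called lower. The only shared region at Steap4 had heights of 31.4, 20.4 and 66.1 against 12.8, 5.52 and 6.16 (−2.60 after centring, SE 0.47, limma adjusted p = 0.00668).

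Not every cluster was of this kind. At Sgms1, 2 of 13 shared regions were called lower and 2 higher, with a median difference of 0.01. At Tbl1xr1, 11 of 18 were called lower, all but 1 of them distal, while a region 1.09 kb from a start was called higher (1.45, SE 0.39, adjusted p = 0.0186). At Atrnl1 neither of its 2 shared regions was called. Smad3 had 6 lower and 1 higher of 10, Fndc3b 3 lower and 1 higher of 4, and Trps1 4 lower of 8.

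**Figure D5:**
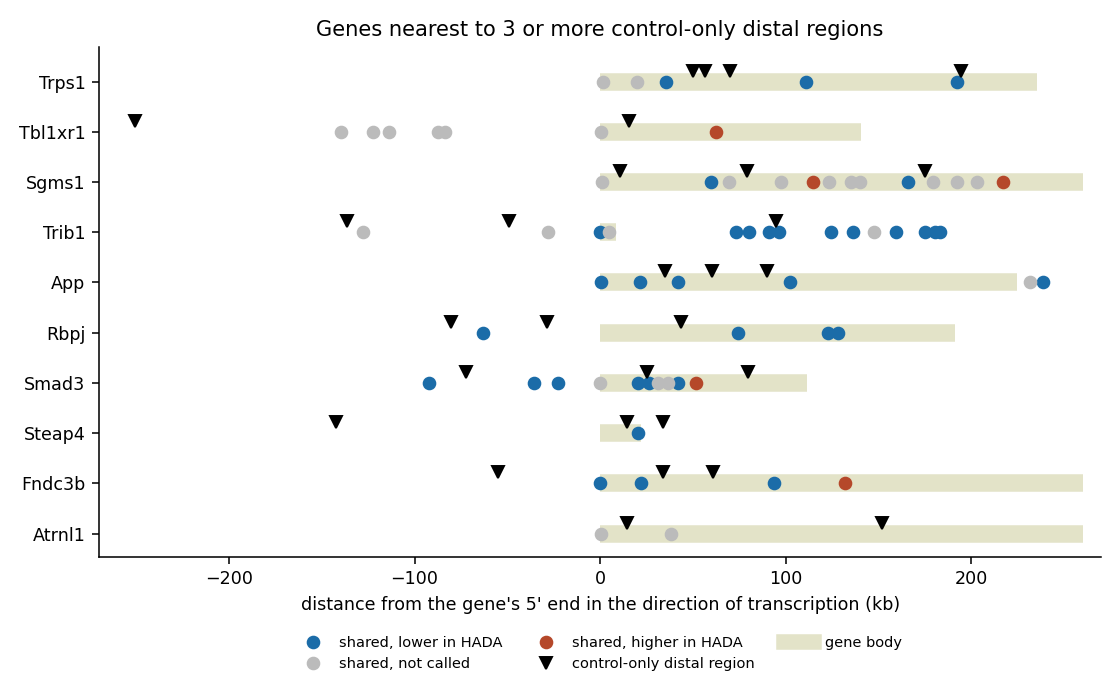
Positions of control-only distal regions (triangles) and shared regions (circles, coloured by the limma call) at the 10 genes nearest to 3 or more control-only distal regions, in kb from the 5′ end of the gene along its transcription. Of 113 regions, 17 lie beyond 260 kb and are not drawn. At Trib1 the regions called lower in HADA lie at its start or downstream, while Sgms1 has mostly regions that were not called. HADA-only distal regions are not drawn.

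Of 234 shared distal regions within 20 kb of a control-only distal region, 43.6% were called lower and 9.83% higher, against 41.7% and 13.8% of all shared distal regions. Around HADA-only distal regions, 15.6% of shared regions were called lower and 27.2% higher, against 33.5% and 12.5% around control-only ones. At the promoters of the nearest genes, 19.6% of 530 shared promoters were called lower and 16.8% higher, beside 10.8% and 20.7% of all 11573 shared promoters.

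Of 15 gene lists for blood cell types and pathways, 8 had a control-only distal region nearest to a member, 14 regions in all, and 6 of these 8 had more HADA-only than control-only distal regions, of which there were 2611 and 726 in all. The neutrophil list had 1 of each kind, the control-only one near Ly6g, the neutrophil surface antigen, at chr15:75013561-75013966, with 22, 27 and 24 fragments. The monocyte list had 2 control-only and 6 HADA-only. The Cx3cr1 region (chr9:119887598-119888113), in an intron of this fractalkine receptor gene, had 51, 44 and 47 fragments. The region nearest to Csf1r, the macrophage growth factor receptor, lay in an annotated exon inside the gene body of Pdgfrb and had 27, 29 and 26. The NK cell list had 2 control-only and 4 HADA-only, the former both near Ncr1, an activating NK receptor, with 15, 25 and 21 and with 19, 11 and 22. The 3 libraries lay close together at Ly6g, Cx3cr1 and Csf1r. The B cell list had 0 control-only and 21 HADA-only regions and the T cell list 0 and 8. The regulatory T cell list had 0 and 1, the eosinophil, basophil and mast cell list 0 and 2, and the erythroid and platelet list 0 and 1. Some listed genes lie outside chromosomes 1 to 19 and could have no region or promoter call. These are Foxp3 of the regulatory T cell list, Gata1 and Alas2 of the erythroid and platelet list and G6pdx of the NRF2 target list.

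The 26 genes of the inflammatory cytokine and receptor list had 4 control-only, 3 HADA-only and 20 shared distal regions. Control-only ones were near Il1a, with 13, 17 and 34 fragments, near Il1b, with 17, 21 and 33, near Il10, with 22, 25 and 20, and near Ccl2, a monocyte attractant, with 26, 23 and 16. Control 3 was the highest library at Il1a and Il1b and the lowest at Il10 and Ccl2, and the Il10 region held the AP-1 heptamer. At shared promoters of this list, 14 of 21 were called lower in HADA, against 10.8% of all shared promoters. Their mean centred log2 heights were 0.73, 0.64 and 1.44 in control 1, 2 and 3 and 0.17, −0.13 and −0.21 in HADA 1, 2 and 3. The NF-kB list had 1 control-only and 9 HADA-only regions, the former near Tnfaip3, the feedback inhibitor A20, with 21, 18 and 20. The hypoxia list had 1 and 5, the control-only one in an annotated exon inside the gene body of Pfkfb3, a glycolytic regulator, with 22, 19 and 33. The adhesion list had 1 and 2, the control-only one near Cd44 with 23, 24 and 46. The MAP kinase list had 2 and 9, the control-only ones near Ksr1, with 23, 23 and 40, and Map2k6, with 15, 20 and 33. The AP-1 and related bZIP gene list had 0 and 7, and the NRF2 target list 0 and 0. At shared promoters, 10 of 28 of the AP-1 and related bZIP list were called lower and 2 higher, and 5 of 18 of the NRF2 target list lower and 2 higher. Control 3 was the highest library at both lists. Mean centred log2 heights of the bZIP list were 1.639, 1.436 and 2.013 in control 1, 2 and 3 and 1.441, 1.240 and 1.205 in HADA 1, 2 and 3, which overlapped. The NRF2 target list had 1.16, 1.09 and 1.68 against 0.95, 0.77 and 0.76. The NF-kB list had 4 lower and 1 higher of 23, the hypoxia list 7 and 2 of 28, the adhesion list 3 and 6 of 19 and the MAP kinase list 5 and 5 of 21.

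Values of marker lists at shared promoters stand beside these counts, where 10.8% of all shared promoters were called lower and 20.7% higher. For the neutrophil list, 14 of 15 shared promoter regions, some genes having more than 1, were called lower in HADA, and 16, 16 and 18 of 20 genes had a promoter peak in control 1, 2 and 3 against 14, 14 and 13 in HADA libraries, with none in any library at Camp and Ngp. For the B cell list, 10 of 10 shared promoters were called higher. Monocyte promoters were called lower in 9 of 14 and higher in 2, and T cell promoters lower in 1 and higher in 7 of 21. Eosinophil, basophil and mast cell promoters were called lower in 4 of 5, with mean centred log2 heights of 0.31, 0.21 and 0.97 in control 1, 2 and 3 and −0.21, −0.44 and −0.79 in HADA 1, 2 and 3, and 8 of the 15 genes of that list had no promoter peak in any library. Erythroid and platelet promoters were called lower in 1 and higher in 3 of 5, and regulatory T cell promoters higher in 1 of 7. Of the 5 NK cell promoters limma called 0, and 0 had an unadjusted p under 0.05. The part of these shifts in the control-only distal regions was not tested.

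The regions just past the 3 kb limit had summits 3002 and 3004 bp from a start, at Pkig, with 24, 18 and 23 fragments, and at Lcmt1, with 14, 14 and 11. Those just short of it lay 2989 and 2986 bp away and had 16, 12 and 13 and 15, 8 and 17. A further 953 distal regions had a peak in all 3 control lists and in 1 HADA list, with a median mean control height of 9.19 and a median of 5.72 in the HADA library that had the peak. This was HADA 1 or HADA 3 in 397 and 399 regions and HADA 2 in 157. In 1525 distal regions, 2 control lists and no HADA list had a peak, and control 3 was the list without it in 757. Scaled to the HADA libraries, the lowest control height of a region would have reached the lowest p of each HADA list in 725 of the 726 regions, before counting noise. Each region had already been called in the control lists, whose lowest −log10 p was 3.16 to 3.27, against 3.12 to 3.15 in the HADA lists. That count was therefore all but fixed in advance, and it does not bear on why the regions lack HADA peaks.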

How the data were processed

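Before deposit, the authors used Trimmomatic for trimming, Bowtie2 for alignment to GRCm39, Picard for duplicates and MACS2 to call each library by itself. Versions, options and any Tn5 shift are not given in the sources used here. The deposited peak lists hold a score, the fold enrichment (a ratio) of the summit over local background, −log10 p and −log10 q, and the summit offset. The whole-number pileup and the background were solved from the deposited fold and −log10 p, and returned the deposited p within 0.1% for 100% of peaks.

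Peaks on chromosomes 1 to 19 were merged at 1 shared bp with starts from GENCODE vM39. Members and gene lists were chosen with earlier results of these data known. Named regions were the 8 tallest and the 6 tallest with AP-1 (each with a summit found once), the 3 with most copies, all at genes with 3 or more regions, those at listed genes, and those beside the 3 kb limit. Motifs were searched on both strands (Python 3.11.15, pysam 0.24.0, scipy 1.17.1), and summit copies were exact matches of 50 bases on both strands. Overlapping matches within a tandem repeat were each counted. Shared regions were compared with limma (version 3.58.1, moderated with trend) on log2 pileups centred on the library median, which was tested on simulated data. Single values per library were compared by exact permutation tests. Binomial intervals cover counting error only. The alternatives left out 1 library, changed the q limit, number of peaks, merging, distance, motif, scaling or cluster size, or added a replicate block. Total read counts were not used here.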

Additional observations from a re-analysis of the deposited data

How the results depend on the processing

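The number of control-only distal regions ranged from 884 to 1486 with 1 library left out (1486 without control 3, 1133 without control 1, 1099 without control 2, and 1127 without HADA 1 or HADA 3), and was 1634 with the same number of strongest peaks in each list and 356 beyond 10 kb. Their AP-1 share ranged from 4.91 to 8.34% with 1 library left out, lowest without control 3, and was 5.45% with the same number of strongest peaks, 4.41% with a window of 50 bases and 51.1% with 1 mismatch. With the same number of strongest peaks, the shared distal regions held the heptamer in 4.58%. The share with a summit found once ranged from 65.8 to 82.2% with 1 library left out, lowest without control 3 and highest without control 2. It was 65.1% with the same number of strongest peaks, 70.8% beyond 10 kb and 79.4% with coding starts only.

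The AP-1 share of distal peaks called in both groups differed by −0.05 percentage points (HADA minus control), by −0.0645 to 0.00185 with 1 library left out, by 0.0645 with a window of 50 bases and by 0.351 with 1 mismatch, by −0.159 at a −log10 q of at least 5 and by −0.335 with summits found once, each with the groups overlapping. The height difference at shared AP-1 regions was −0.465 to −0.227 with 1 library left out, smallest without control 3, and 0.0687 relative to all shared distal regions, a measure added after the values had been seen.

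Shared regions called lower at cluster genes numbered 36 to 125 with 1 library left out (125 of 234 without control 3, 73 of 124 without control 2, 72 of 151 without HADA 3 and 36 of 90 without HADA 2), 73 of 144 with the same number of strongest peaks, 29 of 50 at a −log10 q of at least 5, 8 of 81 with ranks of the fold and 134 of 261 at genes with 2 or more regions. The lower share over all shared regions also moved with the setting. It was 23.4% without control 3, 23.5% without control 2, 15.9% without HADA 3 and 12.6% without HADA 2. With the same number of strongest peaks it was 20.5%, at the q limit 23.0%, with ranks 6.10% and beside genes with 2 or more regions 24.2%. Leaving out a library, the peak limits and the cluster size also changed which genes were counted. With a replicate block, 47 of 81 were called lower, as many as without it, and 2 higher in place of 5. Of all shared regions the block called 5339 lower, and 13.5% higher in place of 18.2%. Nothing in the sources says whether same-numbered libraries belong together. The deviations of same-numbered libraries from their group means correlated at −0.101, 0.0889 and −0.375, which cannot decide it. Ranks of the fold called 1404 of all shared regions lower against 5578. Scaling to the background moved the higher share of all calls from 42.9 to 66.1%, and 39 of the 81 regions were still called lower. The smallest pileup behind a region was 7 fragments. The background was 1.99 to 2.34 in HADA against 1.69 to 2.05 in control libraries, and 725 of 726 regions were tall enough for every HADA list before counting noise. That count was all but fixed in advance by the control calls and was not a test.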
